A study of Macaca fascicularis with 23 samples.

Results

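In the cynomolgus monkey (Cm) PSC lines of this study, 54 genes were low in cells kept without LIF and Dox when set against both naïve-like and primed cells of the same lines, while primed and naïve-like cells held them at about the same level. They were chosen by measured values in 3 steps, on the scale log2(RPM + 1), where RPM is the number of reads of a gene per 1000000 mapped reads. A gene had to exceed 4 in at least 1 of the 21 PSC libraries. Its mean over 7 lines had to be lower by 0.8 or more in differentiated cells than in both other conditions, with a lower value in at least 6 of the 7 lines each time, and its naïve-like and primed means had to lie within 0.8 of each other. Of the 8415 genes analysed here, 2776 were expressed by the first criterion, and 54 of these met the others. The genes analysed held 24.8 to 26.8% of the RPM total of a PSC library, so the 54 are the members among these genes, and other genes were not analysed here. The differences between conditions therefore describe how the members were chosen and carry no test.

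POU5F1, which encodes OCT3/4, was the member with the largest difference, and DPPA4, L1TD1, JARID2 and LEFTY1 from the same pluripotency network were also among the 54. OCT3/4 works with SOX2 and NANOG to hold cells in the undifferentiated state, and both the primed state, which leans on FGF and Activin, and the naïve state, which leans on LIF, depend on it. ETV1, an ETS-family transcription factor of the FGF-ERK output group, and PERP, a membrane protein of desmosomes and a p53 target, were further members. SOX2 itself was no member, and its level was 8.68 ± 0.35 in primed cells, 8.61 ± 0.61 in naïve-like cells and 8.71 ± 0.56 in differentiated cells (log2(RPM + 1), SD, n = 7 lines).

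Expression was read by SC3-seq, a method that sequences cDNA from its 3′ ends, with 1 library per line and condition. The primed condition was bFGF/KSR medium. Cells of the naïve-like condition carried PiggyBac vectors with Dox-inducible human KLF2 and NANOG coupled to Venus, an rtTA construct and the EOS-GFP/puroR reporter, and they grew in K5cLD medium, in which 5 chemicals (Gö6983, forskolin, kenpaullone, CHIR99021 and SB590885) are combined with LIF and Dox. Differentiated cells were the same transfected lines in K5c, the medium with the chemicals but with neither LIF nor Dox. Primed and differentiated cells thus differ in bFGF, chemicals and transgenes as well. CMK6, TRSK and CMK9 are ESC lines. Liver cells of a single foetus gave the iPSC lines iPS-L3 and iPS-L6, and stomach cells of that foetus gave iPS-S6 and iPS-S12, so the 4 iPSC lines share a donor. Some of them still held the episomal reprogramming vector that bears OCT3/4 and a p53 hairpin. Cultured liver and stomach cells of that foetus gave 1 library each.

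The lines were taken as replicates, and nothing in the labels says that a line was cultured more than once. Library numbers in the table run by condition, so any effect of preparing libraries together cannot be told apart from the condition. The PSC libraries held 860533 to 7986136 reads, and the level reached with 3 reads was 0.376 to 3.49 RPM, so values under it are read as not detectable at this depth. In these bulk samples fewer cells with a transcript and less of it per cell cannot be told apart. "Lost" would be too strong a word for most members, since 31 of the 54 were still above 4 in at least 1 differentiated library and 23 in none.

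The median difference over the members was -1.25 for differentiated minus naïve-like and -1.35 for differentiated minus primed cells, beside -0.02 and 0.05 over all expressed genes. It was 0.01 for naïve-like minus primed cells. Both comparisons share the 7 differentiated libraries, so they are not separate evidence. The mean of both differences was -2 or below for 9 members and -1 or below for 47. In 28 members the differentiated library was the lowest of its line in all 7 lines. In 9 members, NFE2L3, ETV1, PERP, BOD1L1, RNPEP, PNRC1, HIBADH, RABGGTB and KIAA1522, all 7 differentiated libraries lay below all 14 others, which held for 0.36% of the expressed genes. HIBADH, RABGGTB and KIAA1522, like PTPRZ1, FCGR2B and TGFBR3 further on, are named after their values were seen. In limma's fit over all expressed genes at an adjusted p under 0.05, 40 members were called lower than naïve-like cells and 40 lower than primed cells, beside 7.71% and 7.13% of the expressed genes, and no member was called between naïve-like and primed cells, beside 19.2%. These counts follow from the choice of members.

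**Figure D1:**
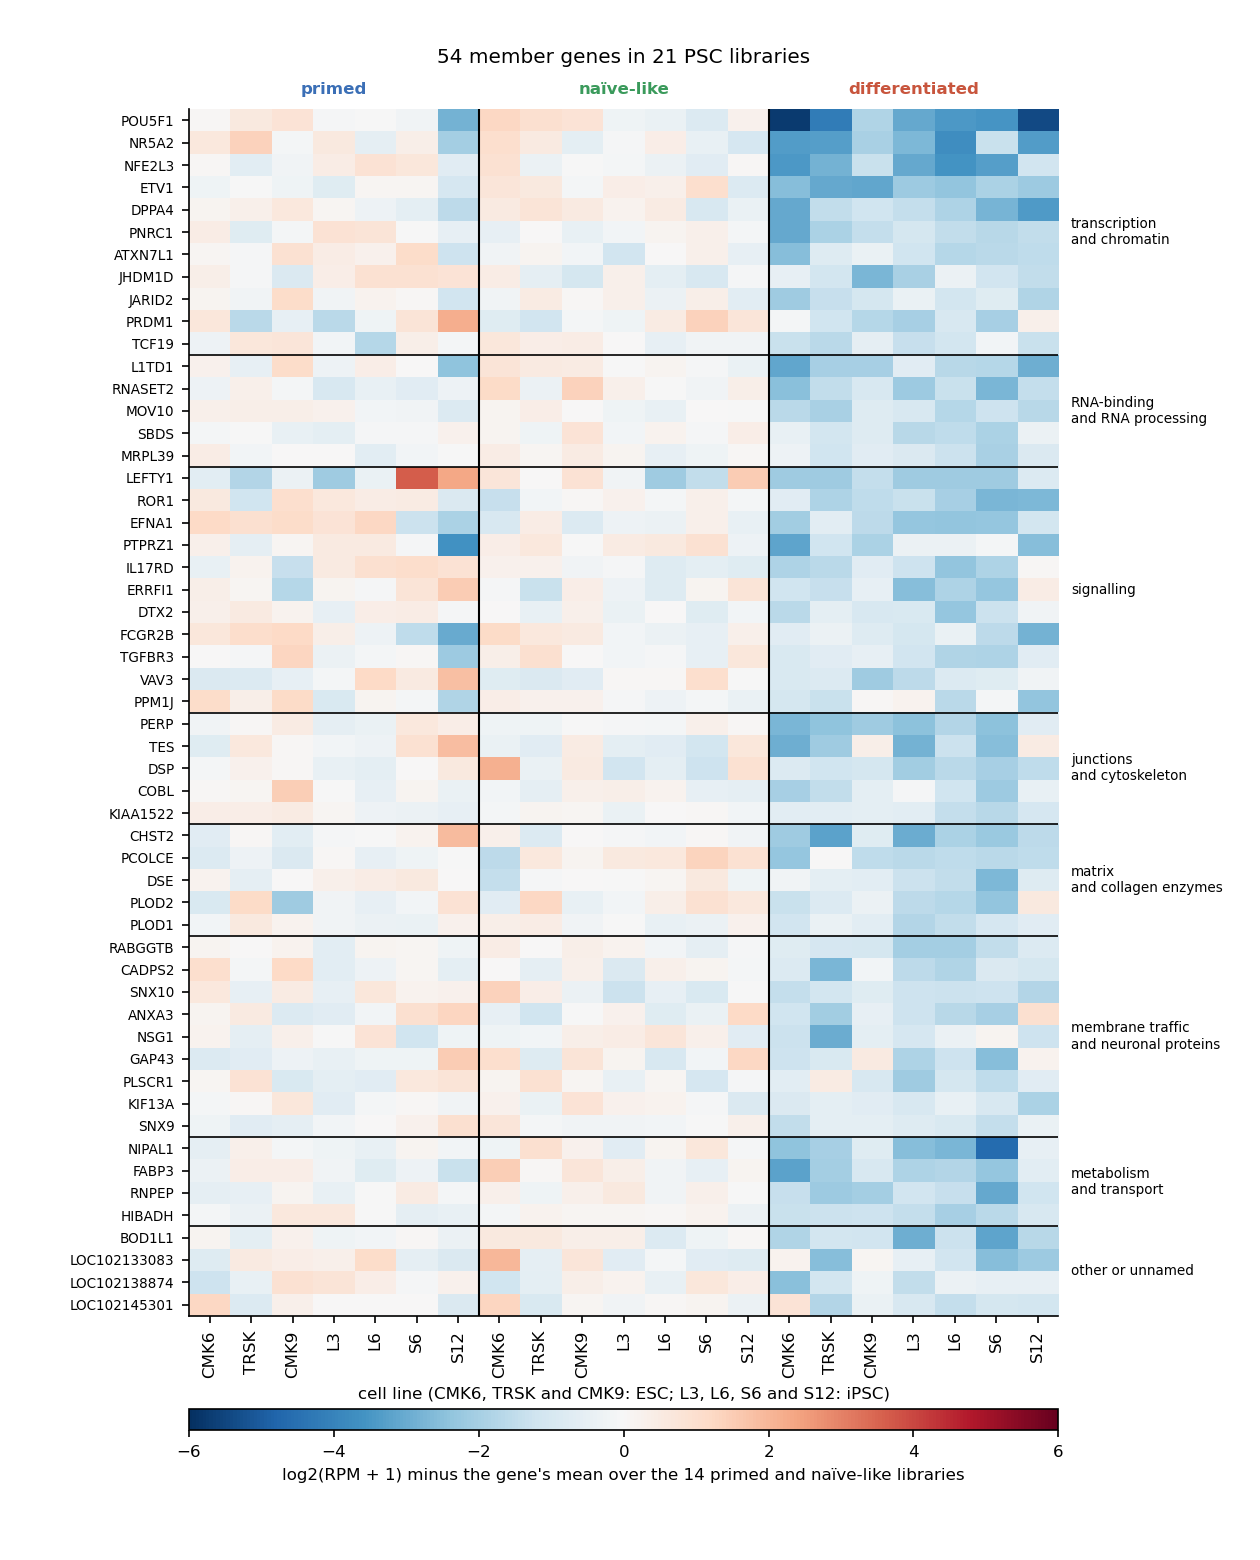
Each row is 1 of the 54 members, ordered by role, and each column 1 of the 21 PSC libraries. The colour gives log2(RPM + 1) minus the gene's mean over the 14 primed and naïve-like libraries, with blue for lower values. The 7 differentiated columns are mostly blue, and primed S12 is blue for POU5F1, L1TD1, PTPRZ1, FCGR2B and TGFBR3.

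The map of all members by library shows the spread among them. Of the 14 primed and naïve-like libraries, all were above 4 for 27 of the members. Differentiated CMK9 and S12 had the highest differentiated value in 12 and 16 of the 54 members (22.2% and 29.6%), beside 10.9% and 19.6% of the expressed genes.

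Transcription and chromatin factors made up 11 of the 54 members, and their median difference was -1.62 against naïve-like and -1.83 against primed cells. POU5F1 (gene ID 102115117) had 32.8 to 427 RPM in primed libraries with a median of 238, 137 to 575 RPM in naïve-like libraries with a median of 289, and 3.59 to 69.2 RPM in differentiated libraries with a median of 20.2. The lowest primed value was that of S12, and 6 of the 7 differentiated libraries lay below it, with differentiated CMK9 the exception. On the log2 scale the mean difference of POU5F1 in differentiated cells was -4.14 ± 1.76 against naïve-like and -3.64 ± 1.20 against primed cells (SD, n = 7 lines), and it was lower in every line. Reads from the OCT3/4 vector, where a line held it, were not separated from those of the monkey gene, and their part in the result was not tested. NR5A2 (gene ID 102118887), an orphan nuclear receptor that binds POU5F1 regulatory sequence, had 2.21 to 34.1 RPM in primed, 5.70 to 25.6 RPM in naïve-like and 0 to 4.25 RPM in differentiated libraries. Its differentiated value was under the level of 3 reads in 5 of 7 lines, so its difference of -2.78 ± 1.37 against naïve-like and -2.85 ± 1.27 against primed cells rests on a level not detectable there.

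NFE2L3 (gene ID 102147249), a CNC-bZIP transcription factor, had 70.0 to 208 RPM in primed, 70.7 to 218 RPM in naïve-like and 8.65 to 50.3 RPM in differentiated libraries, with no overlap. Its differentiated values were high in CMK9 and S12 (45.1 and 50.3 RPM) and at most 15.1 RPM in the other lines. ETV1 (gene ID 102145763) had 22.6 to 51.1 RPM in primed, 25.8 to 94.3 RPM in naïve-like and 4.43 to 11.7 RPM in differentiated libraries. Its groups did not overlap, and the differences were -2.77 ± 0.73 against naïve-like and -2.18 ± 0.70 against primed cells. DPPA4 (gene ID 102116348), a DNA-binding chromatin protein of early embryos and PSCs, had 36.3 to 170 RPM in primed, 55.1 to 186 RPM in naïve-like and 9.35 to 47.5 RPM in differentiated libraries. Its groups overlapped through primed S12 alone, the only primed or naïve-like library under 47.5 RPM. JARID2, a partner of the Polycomb complex PRC2, had medians of 78.6, 79.4 and 34.6 RPM in primed, naïve-like and differentiated libraries, and PNRC1, a nuclear receptor coactivator, 55.6, 52.9 and 19.6 RPM. The other transcription and chromatin members were ATXN7L1, JHDM1D (KDM7A in RefSeq), PRDM1 and TCF19. PRDM1 was under 3 reads in 4 of 7 differentiated libraries.

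**Figure D2:**
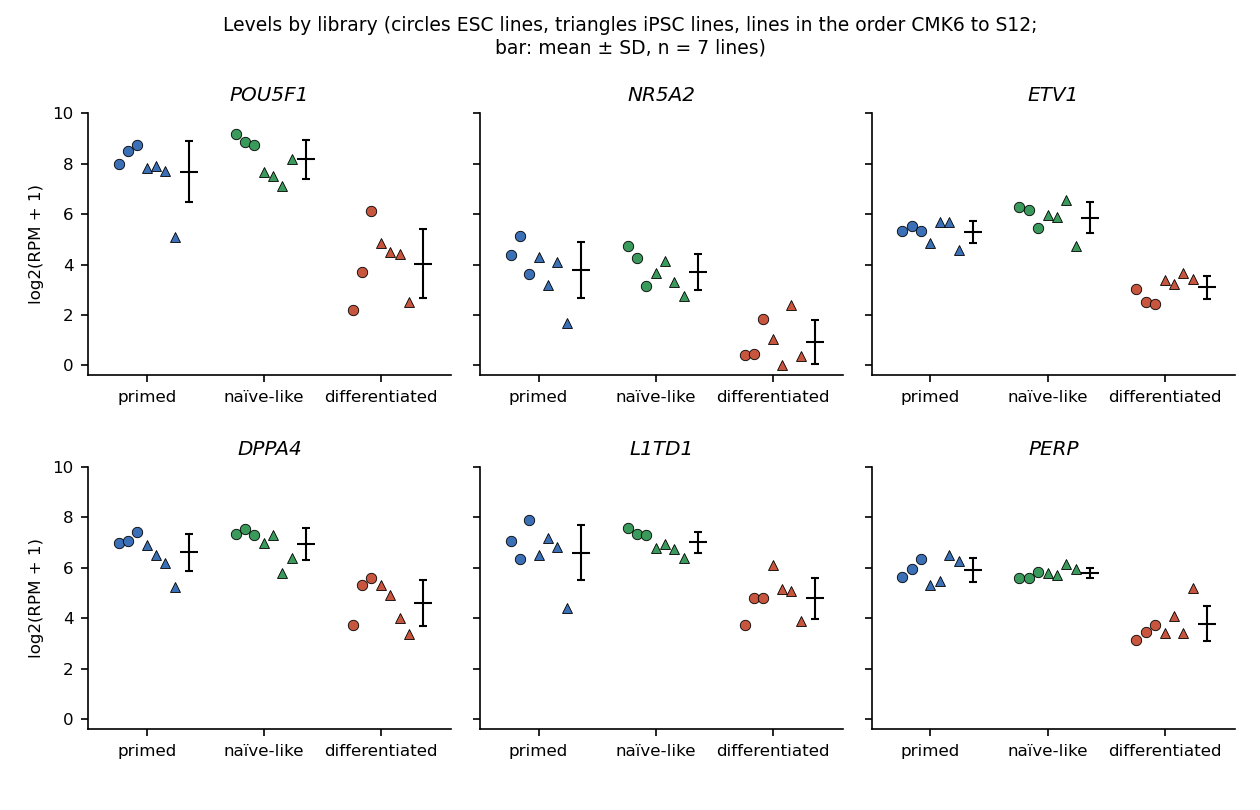
Levels in log2(RPM + 1) of POU5F1, NR5A2, ETV1, DPPA4, L1TD1 and PERP by condition, with 1 point per library (circles for ESC, triangles for iPSC lines) and bars for mean ± SD over 7 lines. Primed S12 is the lowest primed point for all but PERP, and the differentiated points of ETV1 and PERP lie below all others.

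The plot of 6 members by library shows where the groups met. For POU5F1, DPPA4 and L1TD1 they met only at primed S12, the lowest primed library, and for ETV1 and PERP not at all. TCF19 lies next to POU5F1 in RefSeq with overlapping bounds, and the counting did not use strand, so reads in the shared stretch cannot be told apart. TCF19 had medians of 8.86, 9.82 and 3.26 RPM in primed, naïve-like and differentiated libraries, and its levels in liver and stomach cells were 21.1 and 13.9 RPM, where POU5F1 was listed at 0.

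RNA-binding and RNA-processing proteins were 5 of the members, and all 5 were lower in every line in both comparisons. L1TD1 (gene ID 102143457), an RNA-binding protein derived from a LINE-1 element and found in PSCs, had 19.9 to 240 RPM in primed, 82.9 to 188 RPM in naïve-like and 12.1 to 68.0 RPM in differentiated libraries. Its differences were -2.22 ± 0.99 against naïve-like and -1.81 ± 1.15 against primed cells. RNASET2, a ribonuclease of lysosomes, had medians of 33.2, 50.98 and 14.2 RPM in primed, naïve-like and differentiated libraries. MOV10 (an RNA helicase), SBDS (ribosome maturation) and MRPL39 (mitochondrial ribosome) completed the group, whose differences lay between -2.22 and -1.09 against naïve-like cells.

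Signalling proteins were 11 of the members, and in 1 of these, DTX2, the differentiated library was lower than both others in every line, beside 28 of all 54 members. LEFTY1 (gene ID 102143175), a secreted inhibitor of Nodal, had 0 to 52.8 RPM in primed libraries with a median of 2.32, 0 to 11.7 RPM in naïve-like libraries with a median of 3.41, and 0 in 5 of the 7 differentiated libraries, with 0.633 RPM in CMK9 and 1.46 RPM in S12. The primed level was high in S6 and S12 (52.8 and 21.04 RPM) and at most 2.44 RPM in the other lines, so this member rests on few reads and few lines. LEFTY1 and LEFTY2 have near-identical sequences and may share reads. ROR1 (gene ID 102128489), a WNT5A receptor, had 20.3 to 96.3 RPM in primed, 18.0 to 59.3 RPM in naïve-like and 6.37 to 29.7 RPM in differentiated libraries, and the groups overlapped through differentiated CMK6 and L3. EFNA1, an ephrin ligand of EPHA receptors, had medians of 29.1, 11.1 and 2.61 RPM in primed, naïve-like and differentiated libraries. IL17RD, an inhibitor of FGF receptor signalling also called SEF, had medians of 89.98, 51.8 and 19.3 RPM. ERRFI1, an inhibitor of the EGF receptor, had medians of 89.4, 75.1 and 29.9 RPM, and its differentiated S12 library reached 108 RPM. TGFBR3, VAV3, DTX2, PTPRZ1, FCGR2B and PPM1J were the remaining signalling members.

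Junction and cytoskeleton proteins were 5 of the members. PERP (gene ID 101865419, named from RefSeq) had 38.5 to 89.5 RPM in primed, 47.7 to 70.7 RPM in naïve-like and 7.83 to 35.95 RPM in differentiated libraries. All 7 differentiated libraries lay below the 14 others, and the differences were -2.04 ± 0.66 against naïve-like and -2.15 ± 0.73 against primed cells. The highest differentiated value was again S12, and the other 6 lines had at most 16.0 RPM. DSP, desmoplakin, which anchors desmosomes to intermediate filaments, had medians of 49.5, 36.4 and 16.7 RPM in primed, naïve-like and differentiated libraries, and its naïve-like values ran from 19.9 RPM in S6 to 217 RPM in CMK6. TES, a LIM protein of focal adhesions, had medians of 38.6, 24.2 and 7.47 RPM, with 46.4 and 52.0 RPM in differentiated CMK9 and S12. COBL and KIAA1522 were the others.

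Matrix and collagen enzymes were 5 of the members. CHST2, a sulfotransferase of glycan chains, had medians of 23.2, 22.7 and 4.57 RPM in primed, naïve-like and differentiated libraries, and primed S12 stood at 90.8 RPM. PCOLCE, an enhancer of procollagen cleavage, had medians of 33.8, 65.4 and 13.7 RPM, and its naïve-like minus primed difference of 0.79 was close to the limit of 0.8. DSE, which epimerizes dermatan sulfate, had medians of 46.8, 40.4 and 23.4 RPM. PLOD2, a lysyl hydroxylase of collagen, had medians of 26.7, 39.9 and 11.6 RPM, and PLOD1 was the other member of that family.

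Metabolism and transport gave 4 members. NIPAL1, a magnesium transporter, had medians of 21.3, 26.6 and 3.59 RPM in primed, naïve-like and differentiated libraries. FABP3, which binds fatty acids, had medians of 33.01, 46.6 and 10.6 RPM. RNPEP, an aminopeptidase, had medians of 22.6, 30.7 and 8.81 RPM, and HIBADH, an enzyme of valine breakdown, 38.2, 44.9 and 15.7 RPM. For NIPAL1 the differentiated values ran from 0 in S6 to 16.4 RPM in S12, and they overlapped the other groups through S12 alone. Membrane traffic and neuronal proteins were 9 members (SNX9, SNX10, KIF13A, CADPS2, NSG1, RABGGTB, GAP43, PLSCR1 and ANXA3), with differences between -1.34 and -0.89 against naïve-like cells. BOD1L1, a protein of replication fork protection, had medians of 40.7, 60.4 and 13.7 RPM without overlap, and LOC102133083, LOC102138874 and LOC102145301 have no gene name in RefSeq. By RefSeq bounds MRPL39, SNX10, CADPS2, DSE, JARID2, DSP and NSG1 overlap another gene too, and their reads may include those of the other gene.

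The limit of the rule ran through a continuous range. Of the members just inside, PLOD2 had -0.81 against primed cells, SNX9 -0.82 against primed cells and LOC102145301 -0.82 against primed cells. The genes just outside, S100A10, TPD52L1 and COL26A1, had -0.79, -0.78 and -0.77 against naïve-like cells. A larger set of 73 expressed genes was low against both conditions, and 19 of them were no members because primed and naïve-like cells differed by over 0.8. In 9 of these the naïve-like level was the higher, led by CRIPTO (4.90, 6.74 and 1.14 in primed, naïve-like and differentiated cells, log2(RPM + 1)), and in 10 the primed level was, led by LEFTY2 (4.18, 2.08 and 0.07).

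**Figure D3:**
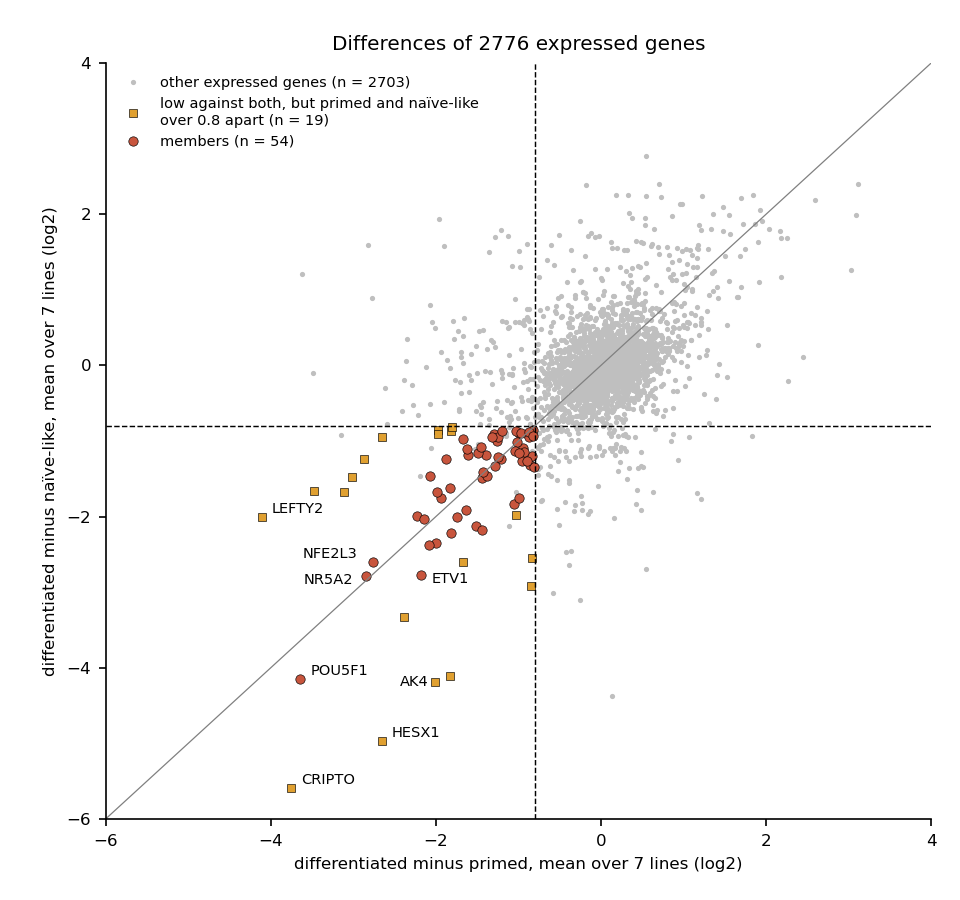
Each point is 1 of the 2776 expressed genes, with the mean difference over 7 lines of differentiated minus primed cells on the x axis and of differentiated minus naïve-like cells on the y axis, both log2. Dashed lines mark -0.8. The 54 members (red) lie near the diagonal, as the third criterion requires, and the 19 genes with unequal primed and naïve-like levels (yellow) lie farther from it.

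Members were then read against lists of pathway genes, of which only a part was analysed here, so the counts do not describe whole pathways. It was 18 of 44 listed genes for pluripotency, 5 of 26 for FGF-ERK, 6 of 21 for Nodal-Activin and 3 of 17 for LIF-JAK-STAT3. For p53 targets it was 10 of 22, for epithelial junctions 8 of 38 and for glycolysis 6 of 25. Beside 5 members, the pluripotency list held 12 expressed non-members, of which 2 were lower than naïve-like and 3 lower than primed cells and 0 higher in limma's test. CRIPTO, a Nodal co-receptor, was lower, with a log2 difference of -5.59 (SE 0.52, adjusted p = 9.41e-08 from limma) against naïve-like cells and of -3.76 (SE 0.52, adjusted p = 5.28e-05) against primed cells. HESX1, a homeobox repressor, was lower, with a log2 difference of -4.97 (SE 0.42, adjusted p = 2.27e-08) and -2.66 (SE 0.42, adjusted p = 0.000151 from limma). LEFTY2 was lower than primed cells, with a log2 difference of -4.11 (SE 0.69, adjusted p = 0.000285 from limma). SOX2 (0.09 against naïve-like and 0.03 against primed cells), LIN28A (-0.18 and 0.44), LIN28B (0.22 and 0.10) and TRIM71 (-0.10 and -0.31) did not pass the test. Summed over POU5F1, SOX2, LIN28A, L1TD1 and DPPA4, the markers of pluripotent cells among the analysed genes, the level was 779 to 2394 RPM in primed, 1554 to 2515 RPM in naïve-like and 1027 to 2138 RPM in differentiated libraries. LIN28A alone had 634 to 1417 RPM in differentiated libraries, so the sum mostly follows LIN28A and SOX2. It says little about POU5F1, L1TD1 and DPPA4, which are members.

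In the FGF-ERK list, 2 of the 5 genes analysed, all expressed, were members (ETV1 and IL17RD). ETV5, of the same ETS subfamily as ETV1, was lower than naïve-like cells, with a log2 difference of -1.68 (SE 0.43, adjusted p = 0.0107 from limma) and than primed cells, with -3.11 (SE 0.43, adjusted p = 5.28e-05), and FGFR3 and IER3 passed neither test. Of the Nodal-Activin list LEFTY1 was a member, and of its 5 expressed non-members 1 was lower than naïve-like and 4 lower than primed cells. The LIF-JAK-STAT3 list had no member. Of its 3 expressed genes PIM1 was lower and CISH higher than primed cells (-1.21 and 1.27, adjusted p = 0.0102 and 0.036 from limma). None of the 3 passed the test against naïve-like cells. Of the p53 target list PERP was a member, 8 expressed genes were not, and PLK3 alone was called (-1.59 against primed cells, adjusted p = 0.00344 from limma). CDKN1A had 1.17 against naïve-like and 1.16 against primed cells (adjusted p = 0.0774 and 0.0828 from limma), and in the fit that blocks on the line these were 0.0191 and 0.0215. In the list of epithelial junction genes, PERP and DSP were members and F11R was lower than naïve-like cells, with a log2 difference of -1.44 (SE 0.49, adjusted p = 0.0479 from limma). The glycolysis list had no member. Its AK4, an adenylate kinase and not an enzyme of glycolysis itself, was lower, with a log2 difference of -4.18 and -2.01 (adjusted p = 2.27e-08 and 0.000316 from limma). ENO1 was higher by 0.28 and 0.32 (adjusted p = 0.00976 and 0.00358 from limma). PFKL was higher than naïve-like cells and SLC2A1 lower than primed cells (0.64 and -0.81, adjusted p = 0.0138 and 0.0309 from limma).

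The neural, mesenchymal and endoderm, mesoderm and amnion-trophoblast marker lists held no member, with 6 of 20, 5 of 21 and 8 of 24 listed genes analysed. Of 4 expressed neural genes, 3 were higher than naïve-like and 1 higher than primed cells in limma's test, beside 6.41% and 6.27% of the expressed genes. ZIC1, a neural transcription factor, was higher by 2.19 (SE 0.62, adjusted p = 0.0196 from limma) and 2.59 (SE 0.62, adjusted p = 0.00613). The summed RPM of the 6 analysed neural markers was 288 to 576 in primed, 96.9 to 389 in naïve-like and 347 to 750 in differentiated libraries, where NES alone had 230 to 682 RPM. For the 5 analysed mesenchymal markers it was 62.8 to 829, 40.3 to 263 and 11.7 to 273 RPM, and 1 of the 4 expressed ones, S100A4, was lower than primed cells. For the 8 analysed epithelial junction genes, PERP and DSP included, it was 105 to 222, 102 to 376 and 27.6 to 94.1 RPM. For the 8 endoderm, mesoderm and amnion-trophoblast markers it was 37.3 to 205, 15.2 to 56.5 and 8.49 to 197 RPM. Of their 5 expressed genes KDR was lower, with a log2 difference of -1.66 and -3.48 (adjusted p = 0.0356 and 9.46e-05 from limma), EOMES was lower than primed cells, and AFP, TFAP2A and VTCN1 passed neither test. HES5 was at 0 in all naïve-like libraries, and PKP1, a desmosomal plakophilin, in all primed and all differentiated libraries. The part of other cell types in the members' low levels was not tested.

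With the cell line as a block, limma called 550 genes in place of 392 between differentiated and naïve-like cells and 585 in place of 372 between differentiated and primed cells. Among the 50 listed non-members, 17 in place of 11 and 22 in place of 15 were then called. In that fit DPPA2, LEFTY2 and TWIST1 were also lower than naïve-like cells (adjusted p = 0.0149, 0.0232 and 0.0201 from limma) and CDKN1A, CLDN4 and COL1A2 higher (0.0191, 0.0324 and 0.012). SKIL, GADD45A, S100A6 and VTCN1 were also lower than primed cells (adjusted p = 0.0421, 0.0409, 0.02 and 0.0376 from limma) and LIN28A, CDKN1A and TFAP2A higher (0.0407, 0.0215 and 0.0412).

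The lines did not contribute equally. Both differences were at -0.8 or below for 22 of the 54 members in S12 and for 28 in CMK9, and for 34 to 40 in the other 5 lines, beside 3.13% to 10.6% of the expressed genes. The share of the expressed genes was also lowest in S12 (3.13%) and CMK9 (4.07%) and highest in S6 (10.6%), so these lines differed beyond the members. The median difference of the members against primed cells ran from -1.95 in S6 to -0.95 in S12. The smallest difference against primed cells of a member was that of S12 in 20 of the 54 members, a share not computed for the expressed genes. The primed S12 library was the lowest primed library for 18 members (33.3%), beside 16.0% of the expressed genes, and the highest for 10. It held POU5F1 at 32.8 RPM, L1TD1 at 19.9, DPPA4 at 36.3 and PTPRZ1 at 5.31 RPM, while SOX2 stood at 341 and LIN28A at 349 RPM. Without S12, a lower value was required in at least 5 of the remaining lines. Under that rule 64 genes passed, of which 49 were members, and EFNA1, GAP43, KIF13A, PPM1J and SNX9 were no longer among them. The median difference against primed cells was then -1.46, and that of POU5F1 was -3.82 against primed and -3.89 against naïve-like cells.

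The study set ESC and iPSC lines side by side, and line type was not used to choose the members, although a lower value in 6 of 7 lines limits how far the types could differ. All 4 iPSC lines come from a single foetus, so line type and donor cannot be told apart in any ESC against iPSC comparison here. In the withdrawal response, differentiated minus naïve-like cells, 0 of the 54 members differed between ESC and iPSC lines in limma's interaction test at an adjusted p under 0.05, beside 0.0% of the expressed genes. At an unadjusted p under 0.05 there were 3 members (5.56%), beside 3.93% of the expressed genes. These were DSE, with 0.01 in ESC and -1.67 in iPSC lines (difference 1.67, 95% interval 0.56 to 2.78, adjusted p = 0.999 from limma), PCOLCE, with -1.02 and -2.45 (difference 1.42, interval 0.12 to 2.72), and ROR1, with -0.86 and -2.28 (difference 1.42, interval 0.01 to 2.83). For DSE, differentiated CMK6, TRSK and CMK9 had 34.9, 26.8 and 25.5 RPM, and L3, L6, S6 and S12 had 15.9, 13.6, 5.31 and 23.4 RPM. The types did not overlap there, but the difference in differentiated cells was not called (adjusted p = 0.211 from limma). The share of the expressed genes separated in this way was not computed. In naïve-like cells CMK6 had 14.5 RPM of DSE, the lowest value, and the other lines had 33.1 to 60.7 RPM. POU5F1 had -4.92 in ESC and -3.56 in iPSC lines, a difference of -1.35 with an interval from -3.43 to 0.73. The half-width of the interval had a median of 1.399 over the members in this fit, which did not block on the line. Differences smaller than that were in general not detectable in it with 3 ESC and 4 iPSC lines, even without adjustment. A call after adjustment needed a larger difference still, so the 0 calls do not exclude differences of this size.

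**Figure D4:**
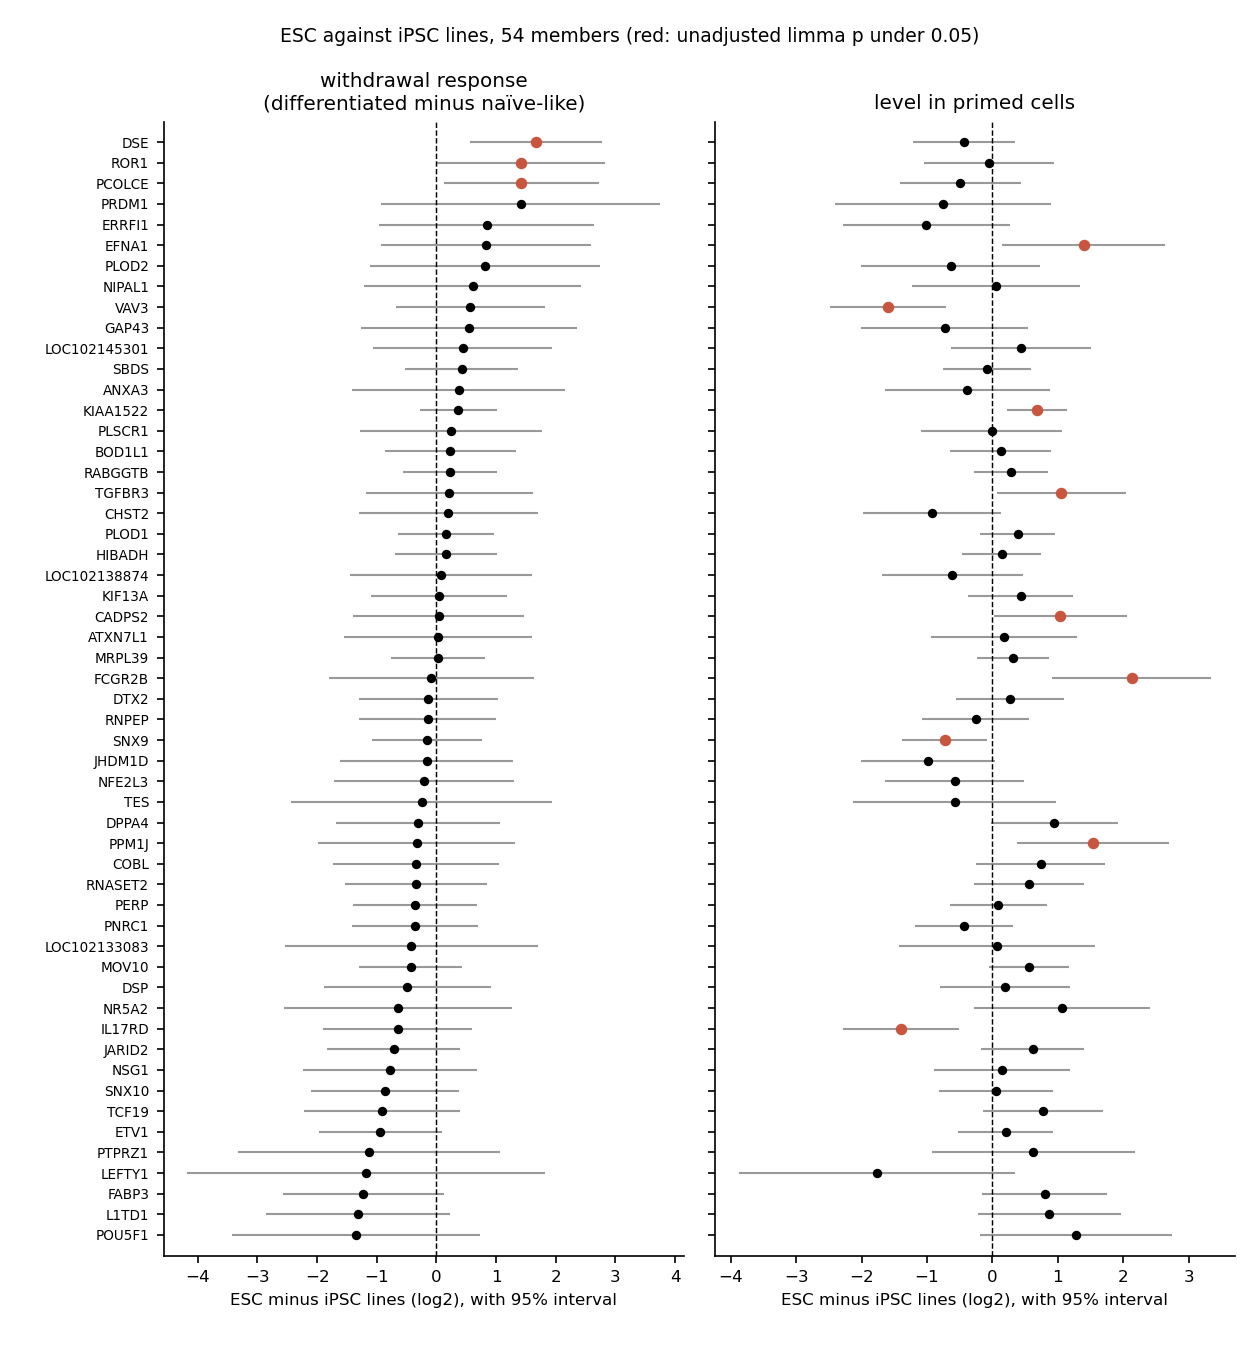
Difference between ESC and iPSC lines (log2) for each of the 54 members, with its 95% interval from limma, for the withdrawal response at left and the level in primed cells at right. Red points have an unadjusted p under 0.05, 3 at left and 9 at right, and no member passed after adjustment over all expressed genes.

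Levels of the members within a condition gave 0 calls as well. Leaving out 1 line gave calls for FCGR2B and VAV3 in primed cells (without L3), PCOLCE (without TRSK) and DSP (without S12) in naïve-like cells, and DSE and PTPRZ1 in differentiated cells (without S12). Over all 2776 expressed genes the same fits gave 24 calls in primed cells without L3, 26 and 31 in naïve-like cells without TRSK and without S12, and 112 in differentiated cells without S12. In primed cells 9 of the 54 members had an unadjusted p under 0.05 in limma's test (16.7%), beside 15.8% of the expressed genes, and 1.59% of these were called after adjustment. VAV3 had an ESC minus iPSC difference of -1.59 (SE 0.43, adjusted p = 0.0579 from limma). FCGR2B, an Fc receptor, had a difference of 2.13 (SE 0.59, adjusted p = 0.0638 from limma). VAV3 and FCGR2B are named after their values were seen. IL17RD had a difference of -1.40 (SE 0.43, adjusted p = 0.104 from limma). Primed IL17RD was 44.9, 69.7 and 22.8 RPM in the ESC lines and 89.98, 120 (L6), 126 and 113 RPM in the iPSC lines, with no overlap. How many of the expressed genes were separated in this way in primed cells was not computed. In naïve-like cells 4 members and in differentiated cells 5 had an unadjusted p under 0.05, beside 10.1% and 12.5% of the expressed genes, and the calls after adjustment were 0.72% and 0.612% of them. The ESC minus iPSC difference of ETV1 in differentiated cells was -0.76 (interval -1.49 to -0.03, adjusted p = 0.356 from limma), and that of PERP was -0.58 (interval -1.32 to 0.16).

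The conversion response, naïve-like minus primed cells, was compared in the same way after the values were seen, and 0 members were called, beside 0.0% of the expressed genes (133 of which had an unadjusted p under 0.05). IL17RD was higher after conversion in 3 of 3 ESC lines (mean 0.64) and lower in 4 of 4 iPSC lines (mean -1.38). The difference was 2.02 (SE 0.60, interval 0.77 to 3.27, adjusted p = 0.910 from limma). The rule kept the mean of this response over all lines within 0.8, so opposite signs between the line types were favoured by the choice of members.

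The somatic cells of the iPSC donor gave 1 library each, so their values have no replicate and no test. The liver library was without the hepatocyte genes ALB, APOA2 and AFP, each listed at 0, and held the fibroblast collagen gene COL1A2 at 4832 RPM. The stomach library had TFF1 and CLDN18 of gastric epithelium at 89.5 and 188 RPM beside 4506 RPM of COL1A2. These 6 markers were chosen after the values were seen. POU5F1, DPPA4, L1TD1, LEFTY1, PTPRZ1 and LOC102133083 were listed at 0 in both somatic libraries, where 3 reads would give 1.76 RPM in liver and 0.973 RPM in stomach. Differentiated cells still had 9.35 RPM or more of DPPA4, 12.1 RPM or more of L1TD1 and 3.59 RPM or more of POU5F1 in every line.

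Liver cells were at least 1 log2 unit lower than the primed mean in 29 of the 54 members (53.7%), beside 25.7% of the expressed genes, and higher in 5, beside 7.96%. Stomach cells were lower in 30 (55.6%), beside 21.3%, and higher in 6, beside 11.9%. The primed level entered the choice of the members, so a high primed mean was in part built in. Against the differentiated mean the member medians were 0.00 in liver and -0.01 in stomach, beside -0.35 and -0.29 over the expressed genes. A low differentiated mean was required by the rule, so this gap to the expressed genes was in part built in as well. By the mean log2 level of both somatic libraries TES, ERRFI1 and PLOD2 were the highest, with 170, 89.2 and 60.3 RPM in liver and 288, 345 and 321 RPM in stomach. PERP had 0.587 RPM in liver, which is under the level of 3 reads, and 71.0 RPM in stomach, a value inside its primed range.

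**Figure D5:**
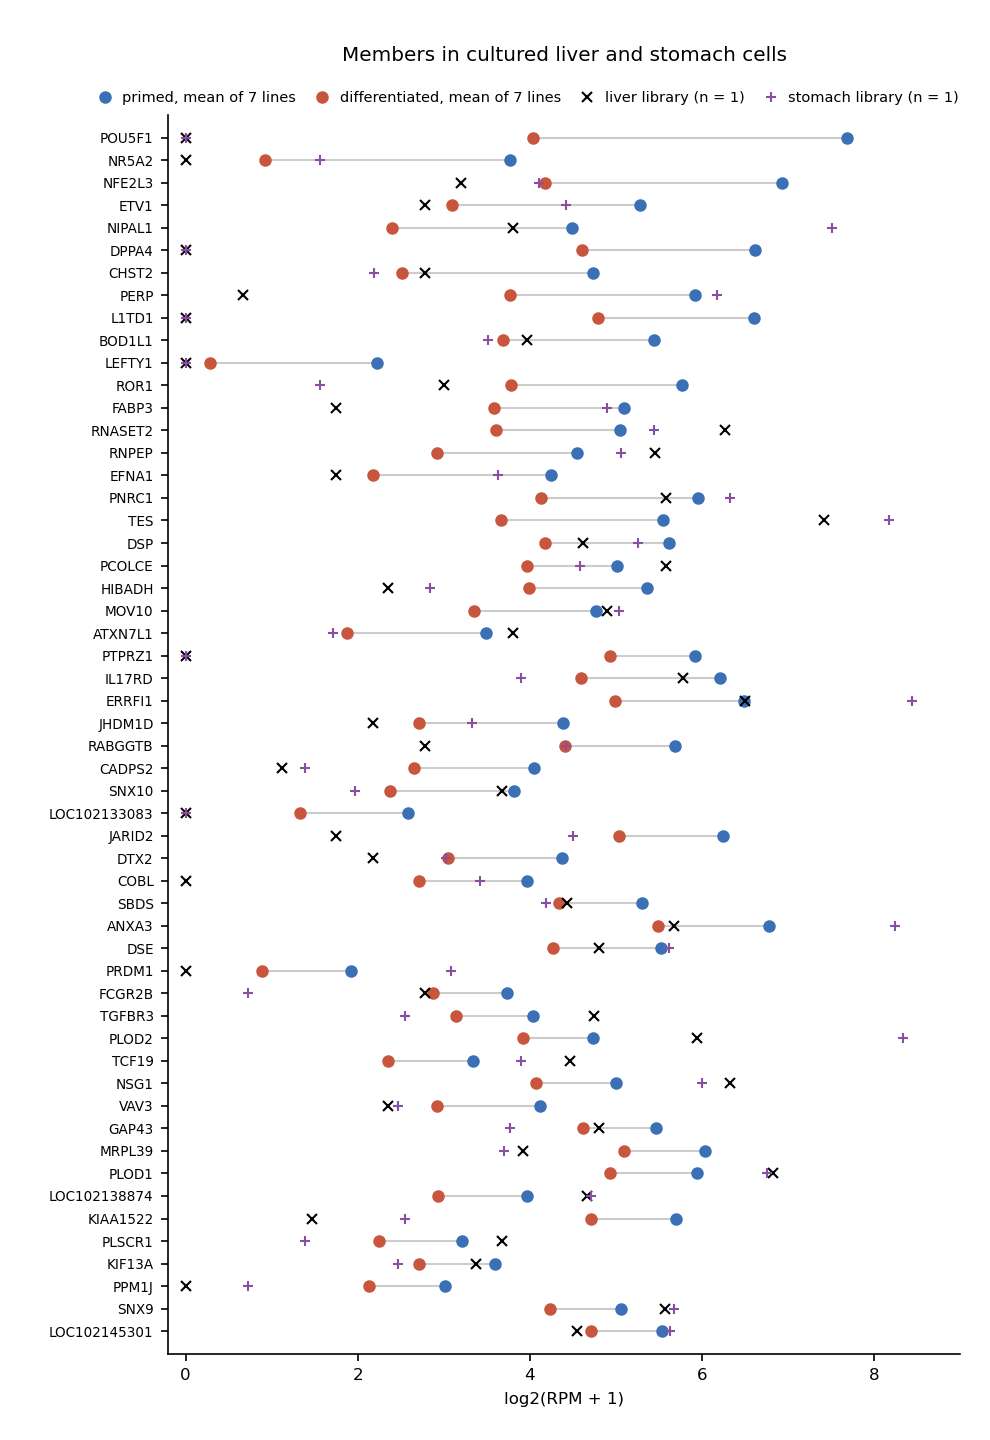
Levels in log2(RPM + 1) of the 54 members, ordered by the mean of both differences, with the mean of 7 primed and of 7 differentiated lines as points and the single liver (x) and stomach (+) libraries. POU5F1, DPPA4, L1TD1, LEFTY1, PTPRZ1 and LOC102133083 lie at 0 in both somatic libraries, and ERRFI1, PLOD2, ANXA3 and TES have the highest stomach levels.

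The plot of somatic levels shows that the members did not share a somatic pattern. In 11 of the 54 both somatic libraries lay above the primed mean, beside 24.6% of the expressed genes. These were RNASET2, RNPEP, TES, MOV10, ERRFI1, PLOD2, TCF19, NSG1, PLOD1, LOC102138874 and SNX9, which come from all 8 role groups.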

How the data were processed

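SC3-seq libraries of 21 Cm PSC samples (7 lines in 3 conditions) and 2 somatic samples were analysed. Per the submitters' processing notes the reads were handled with cutadapt 1.3, TopHat 1.4.1 and Cufflinks 2.2.0, and the table's name gives the build as macfas5. The authors deposited RPM values per gene, which are reads per 1000000 mapped reads counted without strand, and log2(RPM + 1) was computed from them. Between 85.5 and 92.7% of the RPM values were whole multiples of 1 read (tolerance 0.01), which gave the depth, but the values were not treated as counts. The last line of the table was incomplete and was dropped, leaving 8415 genes. RefSeq (another assembly, T2T-MFA8v1.1, so neither coordinates nor sequences are given) held 5564 of the gene IDs and named 991 of them.

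Each contrast was fitted with limma 3.58.1 in R 4.3.3 (mean-variance trend, all 21 PSC libraries, no block) over the 2776 expressed genes with Benjamini-Hochberg adjustment. A test on simulated data was run first, but its libraries were drawn independently, so it did not cover deviations shared within a line. Libraries of the same line deviated together (mean r = 0.269, lowest 0.0304 over 21 pairs, beside -0.0446 over 126 pairs of different lines), the pairing coming from the line names in the labels, so a fit with the line as block was run as well. A level of 3 reads was taken as the limit of detection and covers counting error only. p-values measure the spread between lines, which for the iPSC lines is a spread within a single donor. The members, gene lists and tests were chosen with earlier results of these data known. Named were POU5F1, ETV1 and PERP, the 20 members with the lowest mean of both differences, members in a pathway list, the 3 with the smallest p in the withdrawal response, those at the limit of the rule, the 3 with the highest somatic levels, and listed non-members called in both differentiated contrasts. Alternatives were other pseudocounts, filters, scalings and thresholds, and leaving out each line.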

Additional observations from a re-analysis of the deposited data

Results flagged for a closer look

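In 7 of the 81 groups of 7 libraries that were examined, the lowest or highest value of a named member stood apart from the other 6 by a share of the group's range above Dixon's 95% critical value, and chance gives about 4.05 (1 in 20). POU5F1 in primed cells was lowest in S12, with a gap of 0.716 of the range, at 32.8 RPM. CHST2 in primed cells was highest in the same library, at 0.651, with 90.8 RPM. Naïve-like CMK6 was lowest for ROR1 (0.731, 18.0 RPM), PCOLCE (0.591, 13.503 RPM) and DSE (0.570, 14.5 RPM). PNRC1 was lowest in differentiated CMK6 (0.589, 5.88 RPM), and PCOLCE was highest in differentiated TRSK (0.651, 42.1 RPM).

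In the conversion response, naïve-like minus primed cells, the values of 2 named members were higher in all 3 ESC lines and lower in all 4 iPSC lines. IL17RD differed by 2.02 (0.64 in ESC and -1.38 in iPSC lines, unadjusted p = 0.00297, adjusted p = 0.910 from limma). SNX9 differed by 0.893 (0.62 in ESC and -0.27 in iPSC lines, unadjusted p = 0.0564, adjusted p = 0.989 from limma). Neither passed after adjustment. The rule kept the mean of this response within 0.8, so opposite signs were favoured by the choice of members. The share of the expressed genes split in this way was not computed.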

How the results depend on the processing

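The number of members depended on the rule. With a size of 1.0 in place of 0.8 there were 35 members, 32 of them among the 54, and with all 7 lines required there were 28. The other settings gave 42 to 75. Leaving out 1 line, with 1 line fewer required to be lower, gave 47 to 66. Under quantile normalization, library centring and a pseudocount of 0.1, 47 of the 54 were kept each time, and 18 were kept under all 16 alternatives. With a pseudocount of 0.1 the difference of LEFTY1 against naïve-like cells was -3.56 in place of -1.75, and the other 645 of the 646 differences recomputed for the 27 named members moved by less than their spread over lines. PTPRZ1 was a member under none of the 3 scalings.

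Leaving out 1 line gave 219 (without CMK6) to 342 calls in place of 392 between differentiated and naïve-like cells and 241 (without S6) to 392 in place of 372 between differentiated and primed cells. With the cell line as replicate block these were 550 (256 higher, 390 shared) and 585 (305 higher, 371 shared). Between ESC and iPSC lines the block gave 42, 24 and 18 calls in primed, naïve-like and differentiated cells. It called 0 members in these comparisons of ESC and iPSC lines. Leaving out 1 line gave 15 (without L6) to 46 in place of 44 in primed cells, 7 (without L3) to 31 (without S12) in place of 20 in naïve-like cells, and 4 (without L3 or TRSK) to 112 (without S12) in place of 17 in differentiated cells. Without a filter on low values there were 38 in naïve-like cells, 8 in the conversion and 5 in the withdrawal response. Members called were 0 to 2 when 1 line was left out. They were FCGR2B and VAV3 in primed cells without L3, PCOLCE (without TRSK) and DSP (without S12) in naïve-like cells, 1 each, and DSE and PTPRZ1 in differentiated cells without S12. The causes were not tested. Depth limits the low members NR5A2, LEFTY1 and PRDM1, which were under 3 reads in most differentiated libraries. In all, 12 of the 54 members were under 3 reads in at least 1 differentiated library, NIPAL1 and RNPEP in S6 among them.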
